A study of Mus musculus with 14 samples.

Results

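The transcriptome of the young adult mouse heart was described from 4 RNA-seq libraries of male wild-type C57BL/6 mice aged 12 weeks and fed standard chow. These are all the RNA libraries of that age, 4 of the 8 RNA libraries and of the 14 samples in the series, and they were chosen by their age label alone. Each was made from total RNA of pulverised heart tissue, and the labels name no chamber, so atria, ventricles and the vessels or fat attached to them may all be present. The labels do not say that the 4 libraries came from separate mice, and each SD below (n = 4) therefore measures the spread between these libraries, which may be technical. With 1 group there is no contrast and no test, and differences are read against the spread of all genes.

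Replicates 1 to 4 held 31659290, 27378490, 23596857 and 27559397 counts in 49141 named genes. No pair of libraries agreed within counting error (chi-square per degree of freedom between 21.6 and 44.3), and their ranks across genes were close, with a Spearman coefficient on CPM of 0.986 to 0.994 (across genes, which are not independent replicates). Levels of different genes are compared as TPM, a length-adjusted unit in which counts are divided by gene length before scaling to a common sum. Levels of 1 gene in different libraries are compared as CPM, counts scaled to a common library size adjusted by the TMM method. The range of a gene is its highest minus its lowest log2(CPM + 0.5) over the 4 libraries, so that a range of 2 is a 4-fold difference. Positions are those of the count table, mm10 by label.

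The heart beats without rest, and its muscle cells, the cardiomyocytes, carry a dense lattice of actin and myosin filaments, a calcium store that is emptied and refilled at each beat, and mitochondria that make the ATP for both. In the adult that ATP comes mainly from fatty acids. Most of the proteins involved belong to small gene families whose members are used in different muscles, so that the choice of a member marks the chamber, the muscle type and the age of the tissue. The mouse ventricle relies on the fast alpha myosin heavy chain, whereas the hearts of larger mammals rely on the slow beta chain.

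A small number of genes made up much of each library. In all, 28739 genes had a count in at least 1 library, 14045 reached a mean of 1 TPM, 922 reached 100 TPM and 93 reached 1000 TPM, of which 68 were nuclear protein-coding genes and 11 were mitochondrial tRNAs. The 41 genes of highest mean TPM held 50% of all TPM, and the number per library was 63, 45, 28 and 35 in replicates 1 to 4. This concentration rests on mitochondrial genes and very short genes: 116 genes were needed when mitochondrial genes were left out, 84 when genes under 200 bases were, and 320 over nuclear protein-coding genes alone. Among nuclear protein-coding genes, the 10 highest held 12.8% and the 100 highest 33.7% of that class's TPM.

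Of the 30 nuclear protein-coding genes of highest mean TPM, 10 encode contractile filaments or their scaffold, 10 the respiratory chain or ATP supply, 3 oxygen-binding globins and 2 calcium uptake, and 5 have other roles. Largely the same genes were at the top in every library: 27 genes were among the 30 highest of all 4 libraries and 88 among the 100 highest of all 4. Myoglobin, Mb, which stores oxygen in muscle, led at 15291, 15143, 12875 and 12758 TPM in replicates 1 to 4 (14017 ± 1388, SD). Cardiac alpha-actin, Actc1, the actin of the thin filament, followed at 14100, 14440, 12433 and 9110 TPM (12521 ± 2437). Mb was above Actc1 in all 4 libraries, with the widest gap in replicate 4, which had the lowest Actc1.

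**Figure D1:**
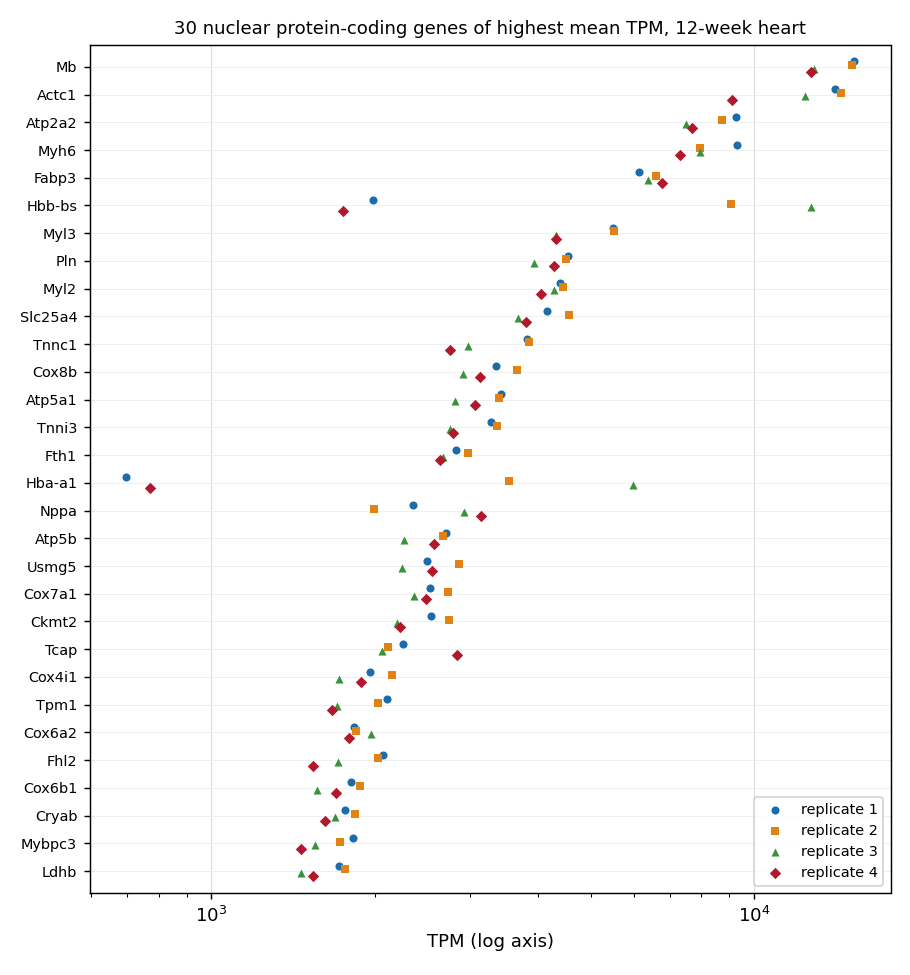
TPM (log axis) of the 30 nuclear protein-coding genes of highest mean TPM, 1 row per gene and 1 point per library, coloured by replicate. Most genes keep their 4 points close together, while the hemoglobin genes Hbb-bs (1749 to 12722 TPM) and Hba-a1 (697 to 5994 TPM) spread widely, with replicates 2 and 3 high.

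The next pair, Atp2a2 and Myh6, could not be ordered beyond their spread. Atp2a2, the SERCA2 pump that returns calcium to the store, stood at 9268, 8718, 7504 and 7681 TPM. Myh6, the alpha myosin heavy chain, stood at 9299, 7940, 7960 and 7307 TPM, above Atp2a2 in replicates 1 and 3 and below it in replicates 2 and 4. Fabp3, which carries fatty acids through the cytosol, reached 6474 ± 271 TPM, and its lowest library was replicate 1 (6149 TPM). The light chain genes Myl3 (4916 ± 688 TPM) and Myl2 (4293 ± 174 TPM), the pump inhibitor Pln (4318 ± 280 TPM) and Slc25a4, which exchanges ADP for ATP across the inner mitochondrial membrane (4046 ± 401 TPM), came after Fabp3. Myl3 was above Pln in all 4 libraries, Pln and Myl2 differed by less than the SD of either, and Slc25a4 was above Myl2 in replicate 2 only.

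Further members of that group of 30 were troponin C, Tnnc1 (3350 ± 570 TPM), and troponin I, Tnni3 (3045 ± 317 TPM), the calcium sensor and the inhibitory subunit of the thin filament. Atp5a1 (3173 ± 287 TPM) and Atp5b (2553 ± 202 TPM) encode the alpha and beta subunits of ATP synthase. Fth1, the heavy chain of the iron store ferritin, reached 2776 ± 152 TPM, and Nppa, the precursor of atrial natriuretic peptide, 2602 ± 523 TPM. Tcap, which caps titin at the Z-disc, stood at 2260, 2118, 2061 and 2833 TPM, with replicate 4 above the others. The subunits Cox8b (3259 ± 318 TPM), Cox7a1 (2531 ± 153 TPM) and Cox4i1 (1929 ± 179 TPM) of cytochrome c oxidase completed the larger part of the respiratory group. Lpl, the lipase that frees fatty acids from lipoproteins, ranked 44 among nuclear protein-coding genes (1209 ± 62.5 TPM).

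Several of the highest values over all genes belonged to RNAs without a protein. Gm23935, a gene of 57 bases on chromosome 16, had the highest TPM of all (110914 ± 6453), and the ribosomal RNA-like genes Gm26917 (27806 ± 4035 TPM) and Gm42418 (7736 ± 730 TPM) lie side by side on chromosome 17. Rpph1, the RNA of RNase P, reached 21892 ± 3737 TPM, Rn7sk, which restrains transcription elongation, 16418 ± 834 TPM, and Rmrp, the RNA of RNase MRP, 4894 ± 804 TPM. For a gene as short as Gm23935 the TPM depends on whether whole fragments fit inside it, so its rank is uncertain, as are those of the mitochondrial tRNAs.

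Mitochondrial genes differed between the libraries more than their nuclear partners did. The mitochondrial genome encodes 13 proteins of the respiratory chain, together with its own tRNAs and rRNAs, and is transcribed from a few start sites into long precursors that are then cut. Its genes took 18.2%, 18.1%, 25.3% and 25.7% of all TPM in replicates 1 to 4 (21.8% ± 4.26) and 7.41%, 8.07%, 11.5% and 11.4% of counts. Replicates 3 and 4 were thus above replicates 1 and 2 on both scales. The 13 mRNAs alone held 16.8% ± 3.06 of TPM and the 22 tRNAs 4.99% ± 1.2; the rRNA genes were not analysed here. Over the same libraries the summed CPM of 24 nuclear-encoded respiratory chain genes was 21152, 24186, 22192 and 23544, a range of 0.19 on the log2 scale, and that of 13 genes for mitochondrial transcription and RNA turnover had a range of 0.09. Nuclear respiratory genes such as Ndufs1 (703, 740, 694 and 734 CPM), a complex I subunit, and Cox4i1 (1159, 1438, 1243 and 1310 CPM) had no rise in replicates 3 and 4 together.

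Within the mitochondrial genome the mRNA levels spanned more than 3 orders of magnitude. The complex IV subunit mt-Co1 led at 70694 ± 10702 TPM, followed by the complex I subunit mt-Nd1 (28164 ± 6059 TPM) and mt-Cytb of complex III (28114 ± 5506 TPM), which could not be told apart. The complex I subunits mt-Nd5 (14186 ± 3024 TPM), mt-Nd2 (11261 ± 3655 TPM), mt-Nd6 (10608 ± 798 TPM) and mt-Nd4 (4869 ± 1606 TPM) came next. The other 6 mRNAs were listed far lower: mt-Nd3 at 267 ± 56.4 TPM, mt-Co3 at 77.7 ± 22.5, mt-Nd4l at 70.3 ± 14.2, mt-Co2 at 42.6 ± 7.32, mt-Atp6 at 29.2 ± 12.7 and mt-Atp8 at 12.7 ± 6.8. These 6 genes are neighbours, lying between mt-Co1 and mt-Nd4, so the listed levels fall and rise along 1 stretch of the genome. mt-Nd6 lies on the opposite strand from the other mRNAs and overlaps mt-Nd5 at its end, so reads in the overlap are assigned with less certainty.

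The same stretch has a nuclear counterpart in the count table. A run of 6 predicted genes on the minus strand of chromosome 1, from 24611535 to 24616197, follows the order of the mitochondrial genes, and 4 of them have nearly the same length: 681 bases for Gm28661 against 684 for mt-Co2, 678 for Gm10925 against 681 for mt-Atp6, 783 for Gm28437 against 784 for mt-Co3, and 345 for Gm28438 against 348 for mt-Nd3. Their counts were of the order of those of the mitochondrial genes for some of these pairs. Gm28661 had 406, 481, 528 and 592 counts and mt-Co2 had 291, 319, 360 and 398, the nuclear row being the higher in each library. Gm10925 had 146, 181, 280 and 284 counts, beside 143, 159, 296 and 329 for mt-Atp6. Gm28439 (876 bases) and Gm29216 (492 bases) stand in the places of mt-Nd4 (1378 bases) and mt-Co1 (1545 bases) and were shorter. The sources used here do not give how reads with several matches were treated. The levels of the 6 low mitochondrial mRNAs, and those of mt-Nd4 and mt-Co1, are therefore uncertain. The mitochondrial share is a value for the genes as counted. The part of multiple matches in these levels was not tested.

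**Figure D2:**
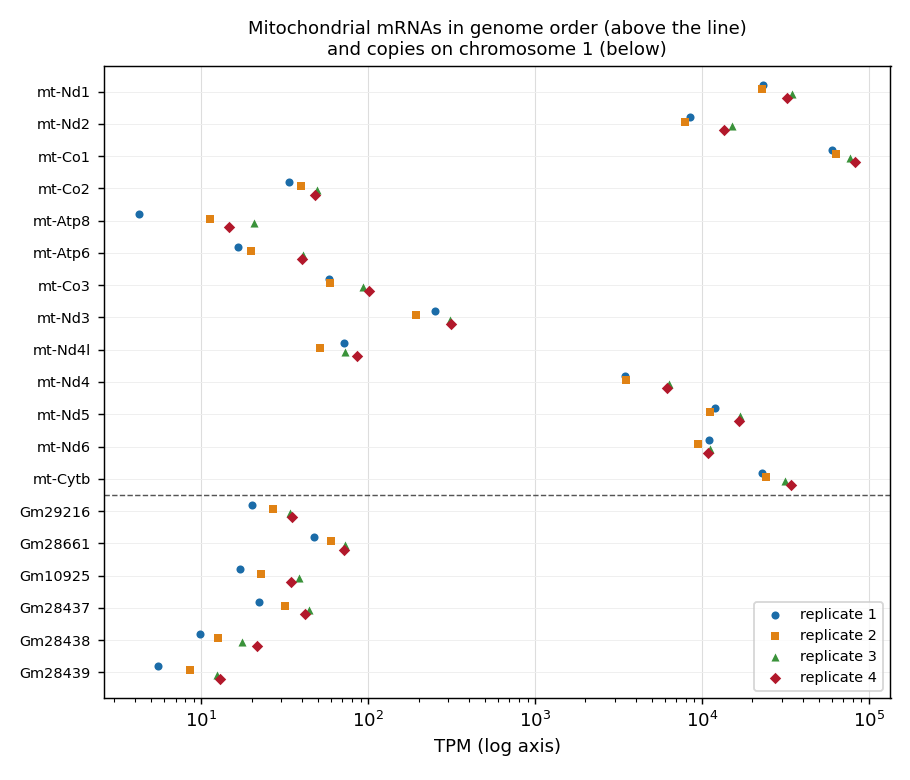
TPM (log axis) of the 13 mitochondrial mRNAs in genome order above the dashed line and of 6 predicted genes on chromosome 1 below it, 1 point per library. mt-Co2 to mt-Nd4l lie between 12.7 and 267 TPM on average, beside 4869 to 70694 for the other 7 mRNAs, and replicates 3 and 4 are to the right of replicates 1 and 2 in nearly every row.

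Choice among related genes varied little between the libraries in most families. Of 71 gene families, 26 had a member that held 90% or more of the family's TPM, and in 6 no member reached 50%. The leading member was the same in all 4 libraries for 69 families, and the median SD of its share was 1.03 percentage points. The exceptions were perilipins and the smooth and non-muscle myosin heavy chains. Shares within a family are per length, using the summed length of all annotated exons, and the leader changed for 9 families when counts were used in place of TPM. By counts the leaders of these were Myh9, Camk2d, Atp5g1, Ckm, Prkab2, Acadm, Plin4, Hspb7 and Mef2a, and Mef2d then held 37.7% and Atp5g3 43.7%.

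Sarcomeric myosin was almost wholly of the alpha type. Myh6 held 99.0%, 99.2%, 99.0% and 98.6% of the TPM of 8 sarcomeric heavy chain genes, and Myh7, the slow beta chain, 0.937% ± 0.27. Myh7 stood at 268, 202, 281 and 377 CPM, highest in replicate 4, and at 76.1 ± 18.3 TPM. Myh6 and Myh7 lie in tandem on chromosome 14, and each holds a microRNA in an intron, as does the related Myh7b on chromosome 2. These microRNAs, known to repress regulators of myosin choice, are shown because they share all or most seed bases while their 3 host genes stood at very different levels. The mature sequences are RefSeq's (GRCm38.p6), 5′ to 3′, with the seed, bases 2 to 8, in capitals.
mmu-miR-208a-3p: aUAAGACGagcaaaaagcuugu
mmu-miR-208b-3p: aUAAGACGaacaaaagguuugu
mmu-miR-499-5p: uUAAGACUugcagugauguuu
miR-208a-3p lies at chr14:54949072-54949093 on the minus strand inside Myh6, miR-208b-3p at chr14:54975710-54975731 on the minus strand inside Myh7, and miR-499-5p at chr2:155622893-155622913 on the plus strand inside Myh7b. The miR-208 pair shares all 7 seed bases and 19 of 22 bases in all, and miR-499-5p shares 6 seed bases with each. Their hosts stood at 8127 TPM (Myh6), 76.1 TPM (Myh7) and 9.31 TPM (Myh7b). The microRNAs themselves were not measured by these libraries in mature form. Over the genome, 575 of 1005 RefSeq hairpins lie inside a named gene on its strand, in 524 hosts, of which 432 reached 1 TPM and 34 reached 100 TPM.

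Light chains carried the mark of the chambers. Myl2, the ventricular regulatory light chain, held 77.4%, 78.0%, 70.9% and 68.2% of its family's TPM, and the atrial Myl7 held 18.2% ± 6.38. Among essential light chains, Myl3 of the ventricle held 88.2% ± 1.29, Myl6 of smooth and non-muscle cells 5.91% ± 0.702, and Myl4 of the atrium 4.79% ± 1.54. Both ventricular shares were lower in replicates 3 and 4 than in replicates 1 and 2. Smooth muscle Myh11 held 38.2%, 39.6%, 23.6% and 21.8% of the smooth and non-muscle heavy chains, leading in replicates 1 and 2 only, beside Myh14 (29.8% ± 5.55) and Myh9 (28.9% ± 4.23).

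In the thin filament and its regulators the heart's own member dominated. Troponin I was 99.9% Tnni3, troponin T 99.4% Tnnt2, and troponin C 100% Tnnc1, with the fast skeletal Tnnc2 listed at a mean of 0.0799 TPM. Tpm1 held 92.3% ± 0.76 of tropomyosin, before Tpm4 (4.89% ± 0.592). Actc1 held 86.9% ± 0.777 of actin, followed by the cytoskeletal Actb (5.40% ± 0.408), the skeletal Acta1 (4.29% ± 0.876) and the smooth muscle Acta2 (2.16% ± 0.905). Acta1 stood at 368, 362, 476 and 387 CPM, highest in replicate 3. Lmod2, which lengthens thin filaments, held 87.8% ± 1.99 of leiomodins, and Tmod1, which caps them, 80.9% ± 0.625 of tropomodulins, with 9.76% for Tmod4 and 7.54% for Tmod3.

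The 120 bases before the RefSeq starts of the striated-muscle actins Actc1 and Acta1 are shown because these genes, at 12521 and 600 TPM, share a motif there. Capitals mark a CArG box, the element to which serum response factor binds, and the letters TATAAA where present. Each is written 5′ to 3′ on the gene's strand, which is the minus strand for both.
Actc1: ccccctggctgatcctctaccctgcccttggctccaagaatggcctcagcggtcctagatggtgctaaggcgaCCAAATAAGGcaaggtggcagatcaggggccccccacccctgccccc
Acta1: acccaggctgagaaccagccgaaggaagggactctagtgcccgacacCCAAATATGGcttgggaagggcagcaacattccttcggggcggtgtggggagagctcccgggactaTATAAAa
The window of Actc1 is chr2:114052876-114052995 and that of Acta1 is chr8:123894776-123894895 (GRCm38.p6). The box began 47 bases before the start in Actc1 and 73 bases before it in Acta1. Both strands were searched over 250 bases before to 50 after each start, the 3 motifs being counted independently of any overlap. A CArG box was found in 1.63% of all 32851 windows, in 4.90% of the 102 windows of the 77 matched genes among the 100 nuclear protein-coding genes of highest TPM, and in 5 of 21 windows (23.8%) of 16 leading muscle filament genes, a set chosen after their values were seen. TATAAA was in 13.6%, 10.8% and 19.0% of the same sets, and a MEF2 site in 3.19%, 4.90% and 9.52%. In the 12267 windows of nuclear protein-coding genes at 1 TPM or more the shares were 1.32% for a CArG box, 7.45% for TATAAA and 1.85% for a MEF2 site. A match describes letters only.

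The scaffold of the sarcomere and its neighbours showed the same preference with more sharing. Mybpc3, which binds and tunes myosin, held 99.0% ± 0.158 of its family, and Actn2, the Z-disc cross-linker, 93.4% ± 1. Fhl2, a LIM protein of the sarcomere, held 92.7% ± 0.904, before Fhl1 (6.44% ± 0.851). Myom1 of the M-band held 76.3% ± 2.29 and Myom2 23.5% ± 2.27. Csrp3, the muscle LIM protein, held 85.3% ± 3.18, and Flnc, the muscle filamin, 60.7% ± 5.85 beside Flna (33.4% ± 6.39). Csrp3 and Flnc shares were lower in replicates 1 and 2, where the smooth muscle genes described below were higher.

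In calcium handling 6 of 9 families had a member at 90% or more. Atp2a2 made up 99.8% ± 0.0265 of SERCA pumps, Ryr2, the release channel of the store, 99.8% ± 0.0465, Slc8a1, the sodium-calcium exchanger, 99.6% ± 0.0427, and Casq2, the calcium buffer of the store, 98.1% ± 0.526. Jph2, which tethers the store to the surface membrane, held 95.2% ± 0.498, before Jph1. Pln held 94.3%, 94.0%, 90.9% and 88.7% of the small peptides that act on SERCA, the rest being the atrial Sln (5.95% ± 2.47) and Gm34302 (2.04% ± 0.359), listed by RefSeq as Strit1 or DWORF. The plasma membrane pump was mainly Atp2b1 (74.3% ± 0.544), with Atp2b4 at 23.8%. The inositol trisphosphate receptors were mixed, with Itpr1 at 47.2%, Itpr2 at 28.2% and Itpr3 at 24.6%. CaM kinase II was split into Camk2g (48.1% ± 1.65), Camk2d (24.4% ± 0.941) and Camk2a (23.2% ± 2.05) per length, whereas by counts Camk2d led.

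Gja1, the main gap junction protein of working muscle, held 93.0% ± 0.867 of 8 connexins, and the next was Gja4 of vessels (2.47%). The beta subunit of the sodium pump was 77.0% ± 1.71 Atp1b1 with 20.3% Atp1b3. Caveolins were Cav1 (51.1% ± 3.01), found in endothelium and other cells, and the muscle-specific Cav3 (38.1% ± 3.74), with 10.8% Cav2.

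Respiratory subunits with a muscle form used that form. Cox6a2 held 83.4%, 84.9%, 93.7% and 91.1% of its pair with Cox6a1, higher in replicates 3 and 4. Cox7a1 held 72.5% ± 1.03 of the subunit 7A family, before Cox7a2 (17.6% ± 1.22) and Cox7a2l (9.85%), and Cox8b held 89.0% ± 1.47 against Cox8a. Cox4i1 (99.5%) and Cox6b1 (99.8%) left almost nothing to Cox4i2 and Cox6b2, and Cycs held 99.8% of cytochrome c against the testis form Cyct. Slc25a4 held 91.5% ± 0.397 of the ADP/ATP carriers, before Slc25a5, and Vdac1 75.6% ± 0.369 of the outer membrane pores, with 14.8% Vdac2 and 9.56% Vdac3. ATP synthase subunit c, which 3 genes encode as the same mature protein, was drawn from Atp5g3 (59.3% ± 1.24), Atp5g1 (30.3% ± 0.989) and Atp5g2 (10.4% ± 2.17).

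Energy transfer was shared between compartments. The mitochondrial creatine kinase Ckmt2 held 63.9% ± 0.596 and the cytosolic Ckm 34.5% ± 0.638, an order that reversed by counts. Ak1 held 78.5% ± 0.854 of the adenylate kinases, before Ak3. Among subunits of the energy sensor AMPK, Prkaa2 held 85.5% ± 0.93 and Prkag1 83.9% ± 0.598, while Prkab1 (52.3% ± 1.45) and Prkab2 (47.7% ± 1.45) were near even.

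Sugar-handling families leaned to the muscle or heart form. Pkm made up 100% of pyruvate kinase, Aldoa 99.7% of aldolase, Pgam2 95.2% ± 0.762 of phosphoglycerate mutase and Eno3 94.1% ± 0.943 of enolase. The insulin-responsive transporter Slc2a4 held 89.6% ± 0.437 of glucose transporters, Hk2 70.9% ± 2.05 of hexokinases with 23.8% Hk1, and Pfkm 88.9% ± 0.366 of phosphofructokinases. Ldhb, the heart subunit of lactate dehydrogenase, held 78.9% ± 0.241 and Ldha 21.1% ± 0.24, a mixture that hardly varied. Pdk4, which shuts pyruvate out of the citrate cycle, held 68.9% ± 3.06, before Pdk2 (24.3% ± 2.76). Glycogen phosphorylase was Pygm (66.2% ± 1.38) and Pygb (33.1% ± 1.3), and glycogen synthase was Gys1 (97.4% ± 1.53) with the liver form Gys2 highest in replicate 4 (4.88 CPM, beside 1.69 to 1.98 in the others).

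Fat-handling families were led by Fabp3 (96.1% ± 0.778 of fatty acid-binding proteins) and Acacb (94.7% ± 1.89), the mitochondrial acetyl-CoA carboxylase that controls fatty acid entry. Acsl1 held 89.3% ± 1.2 of long-chain acyl-CoA synthetases. Cpt1b, the muscle carnitine palmitoyltransferase, held 59.8%, 65.7%, 68.0% and 68.9% and Cpt1a most of the rest, with replicate 1 the lowest for Cpt1b. The acyl-CoA dehydrogenases were Acadl (44.2% ± 1.98), Acadvl (26.0%), Acadm (23.9%) and Acads (5.92%). Perilipins, the coats of lipid droplets, were mixed: Plin3 31.4%, Plin5 30.8%, Plin4 22.0%, Plin2 10.4% and the adipocyte form Plin1 5.46%, with Plin3 leading in 3 of 4 libraries. Ppara held 63.6% ± 3.63 of the PPAR receptors, before Ppard (22.0%) and Pparg (14.4%), and Esrra 79.6% ± 1.08 of the oestrogen-related receptors.

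Translation in adult striated muscle uses special forms of general factors, and both were found in front. Eef1a2 held 63.7% ± 1.72 against Eef1a1, and Rpl3l 74.8% ± 2.45 against Rpl3, although the general forms have many pseudogenes and are uncertain. Small heat shock proteins were spread over Cryab (36.2% ± 0.798), Hspb7 (31.4% ± 2.3), Hspb1 and Hspb6 (10.2% each) and Hspb8 (9.05%). Of transcription factor families, Mef2d held 60.2% ± 1.12 and Mef2a 28.5% ± 1.07 of MEF2, and Gata4 56.5% ± 2.67 and Gata6 37.2% ± 3 of GATA.

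**Figure D3:**
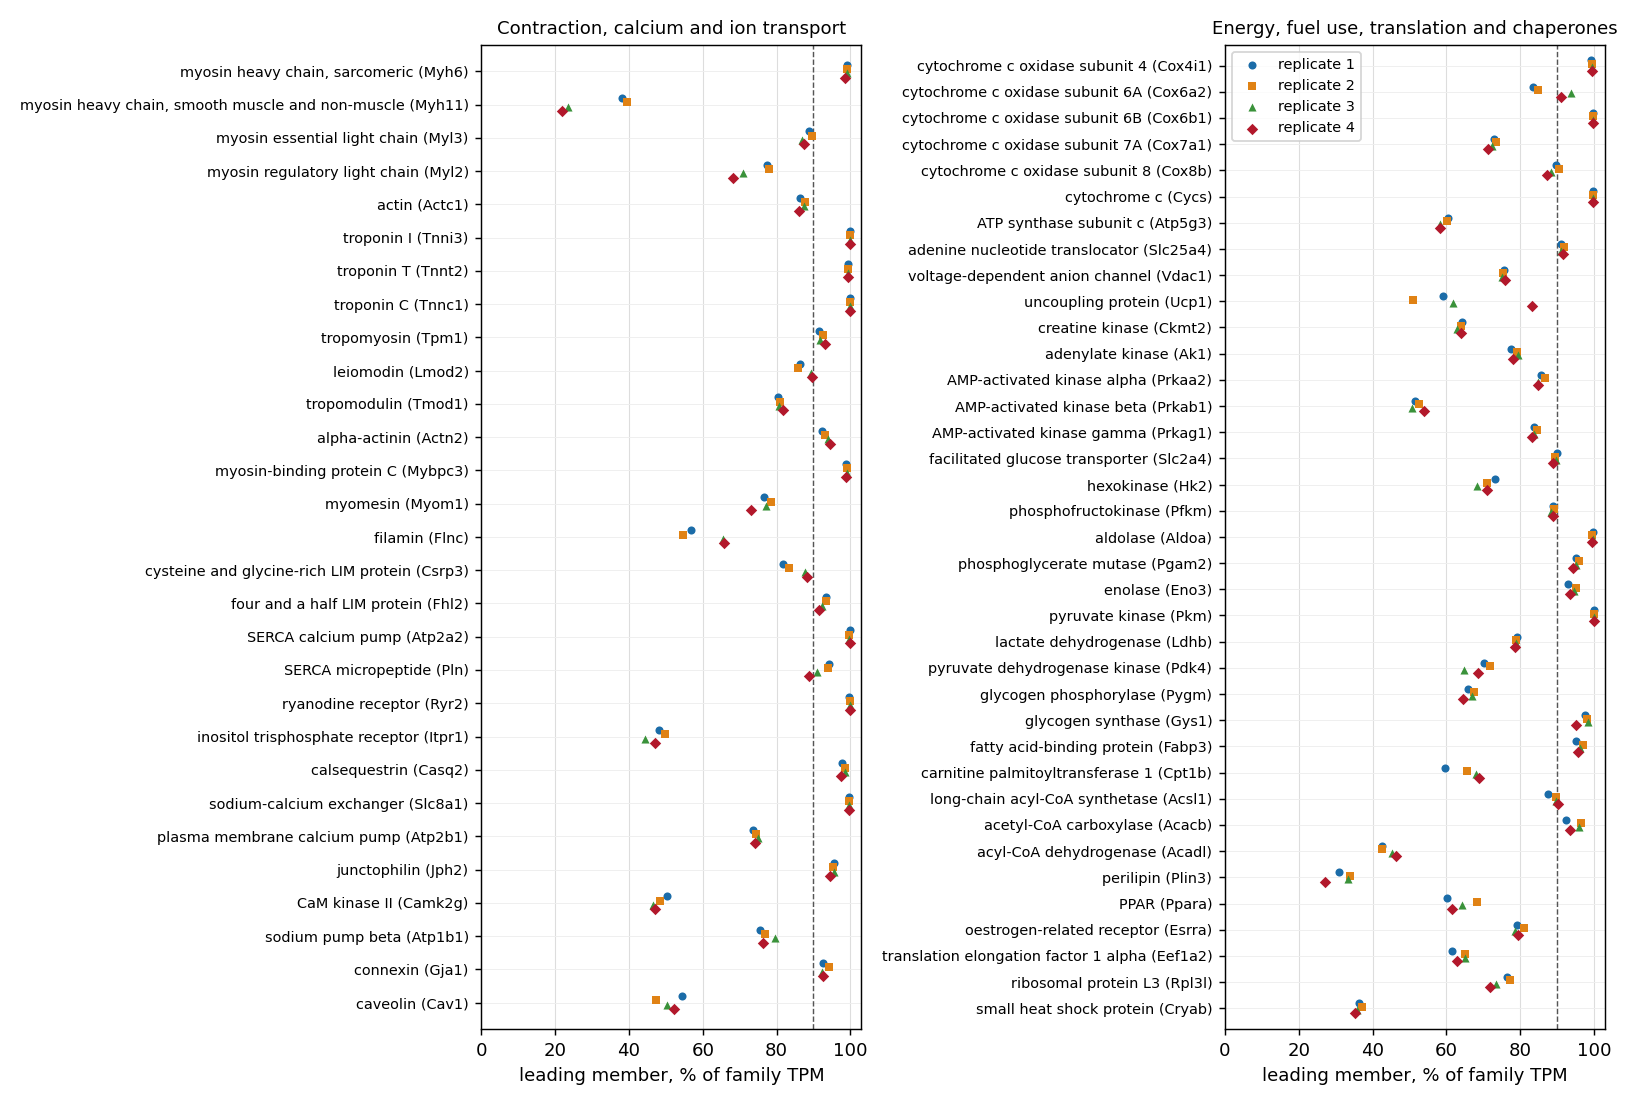
Share (%) of a family's TPM held by its leading member, 1 row per family with that member in brackets and 1 point per library, for families of contraction and ion handling (left) and of energy, fuel and translation (right). The dashed line marks 90%. Most rows have overlapping points, and the wide rows are Myh11 (21.8% to 39.6%) and Ucp1 (50.9% to 83.1%).

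The leading share varied most in the families of globins, uncoupling proteins and natriuretic peptides among those not yet described. Mb held 82.4%, 49.8%, 37.0% and 81.0% of globins, the hemoglobins taking the rest. Ucp1, the uncoupling protein of brown fat, held 59.2%, 50.9%, 61.9% and 83.1% of uncoupling proteins, with replicate 4 highest, before Ucp3 (22.8% ± 11.2) and Ucp2 (13.4% ± 3.96). Nppa held 77.3%, 73.1%, 84.0% and 90.7% of natriuretic peptides and Nppb the rest. Nppa stood at 778, 742, 1178 and 1217 CPM, whereas Nppb stood at 206, 246, 203 and 113 CPM, so that replicate 4 was the highest for the atrial hormone and the lowest for the ventricular one.

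Most genes varied little. Of 13628 genes with a mean of at least 1 CPM, the median range was 0.25 on the log2 scale, and 510 (3.74%) had a range of 2-fold or more. A range of 4-fold or more was found for 151 genes, 1.11% of those counted. Lrrc10b (2.01) lay just inside that limit and Mfsd2b (1.98) just outside it. The common biological coefficient of variation from edgeR was 0.132, and the median over genes 0.103. Of the 151 genes, 109 (0.8% of all genes counted) were highest in replicate 1, of which 107 were also lowest in replicate 4. Replicate 3 was the highest for 32 genes (0.235%), replicate 2 for 7 (0.0514%) and replicate 4 for 3 (0.022%). Replicate 4 decides much of the count: 27 genes were at least 4-fold lower there than in every other library, and without it 45 genes had such a range, 43 of them among the 151. Without replicate 1 the number was 72. Only 11 of the 151 genes reached a mean of 100 TPM.

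**Figure D4:**
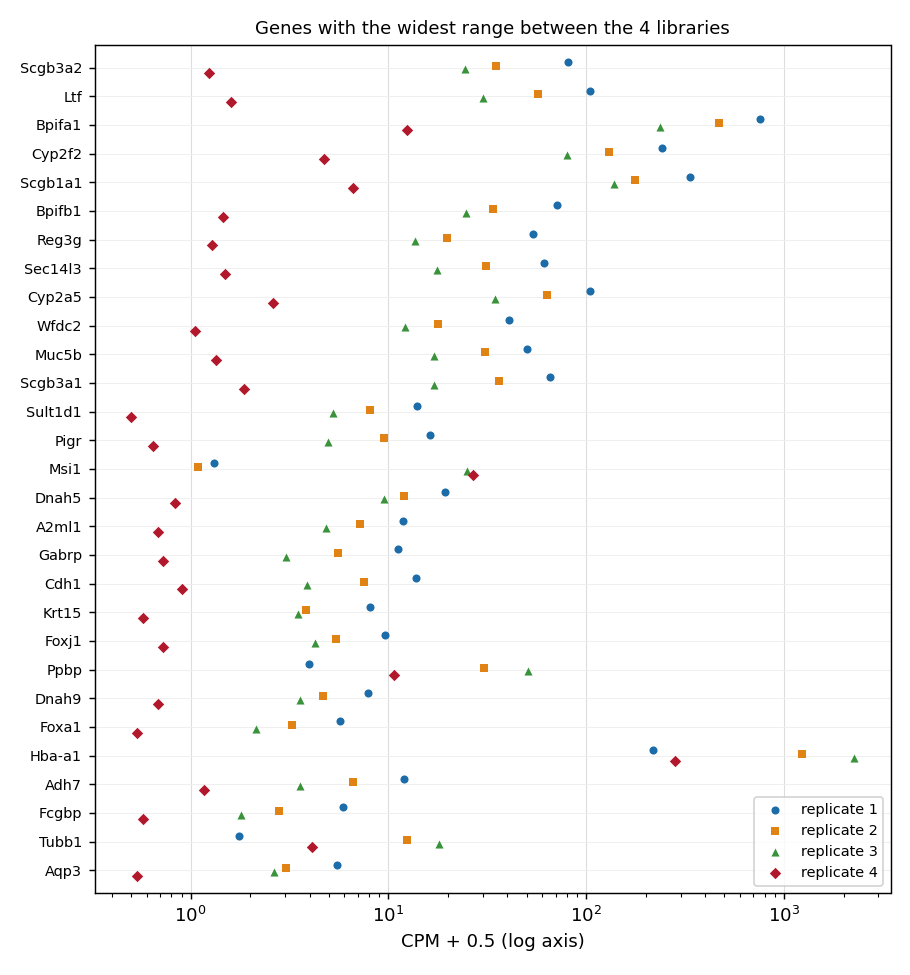
CPM + 0.5 (log axis) of 29 of the 30 genes with the widest range, leaving out Gm and Rik names and receptor segments, 1 row per gene and 1 point per library. Most rows run from replicate 4 at the left through replicates 3 and 2 to replicate 1 at the right, while Ppbp, Hba-a1 and Tubb1 are highest in replicate 3 and Msi1 is high in replicates 3 and 4.

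Genes known from the lining of the airways had the widest ranges. Of 10 genes on a list for airway secretory cells, 9 had a mean of at least 1 CPM and 8 had a range of 4-fold or more. Of all genes counted, 1.11% had such a range. This list and those below were chosen with earlier results of these data known, so their tallies past 4-fold are descriptive only. The airway secretory list summed to 1660, 929, 550 and 29.3 CPM. Bpifa1, a secreted defence protein of the upper airway, stood at 757, 467, 235 and 11.9 CPM. Scgb1a1, the club cell secretoglobin, stood at 334, 175, 138 and 6.14 CPM, and Cyp2f2, an enzyme of the same cells, at 242, 130, 79.7 and 4.22 CPM. In each case replicate 1 was the highest and replicate 4 far below the rest. Scgb3a2 (80.8, 34.6, 23.8 and 0.74 CPM) had the widest range of all 13628 genes at 6.04, followed by Ltf, the gland and neutrophil protein lactoferrin (104, 56.5, 29.5 and 1.11 CPM, range 6.02). In TPM, Scgb1a1 averaged 837 ± 755 and Bpifa1 583 ± 546, so that Bpifa1 was among the 100 highest nuclear protein-coding genes in some libraries and not in others.

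Several other epithelial genes took the same order over the libraries. Tallies past 4-fold cover the listed genes with a mean of at least 1 CPM. The mucin Muc5b stood at 49.6, 30.1, 16.6 and 0.851 CPM, the secretoglobin Scgb3a1 at 65.2, 35.9, 16.6 and 1.37 CPM, and Reg3g, an antibacterial lectin, at 53.1, 19.2, 13.2 and 0.777 CPM. Of the ciliated cell list, 3 of 6 genes passed 4-fold: Foxj1, the master regulator of motile cilia (9.14, 4.96, 3.78 and 0.222 CPM), and the axonemal dyneins Dnah5 (18.9, 11.5, 8.99 and 0.333 CPM) and Dnah9. Of the basal cell list 4 of 7 did, among them Krt15 (7.55, 3.34, 3.00 and 0.074 CPM) and Krt5 (3.73, 2.06, 1.61 and 0.111 CPM), whereas Trp63, the basal cell regulator, did not (1.89, 1.65, 1.65 and 1.66 CPM). The alveolar list summed to 143, 140, 119 and 121 CPM, but 2 of its 3 genes of at least 1 CPM passed 4-fold. These were Sftpa1 (8.84, 2.94, 1.52 and 0.592 CPM) and Sftpd. The median range of the 3 genes was 2.62, so the even sum does not describe the single genes. The epithelial adhesion gene Cdh1 (13.3, 7.01, 3.39 and 0.407 CPM), the antibody transporter Pigr and the factor Foxa1 ran in the same order. A further 9 genes among the 30 of widest range, counted without Gm and Rik names, were also highest in replicate 1 and lowest in replicate 4, with ranges of 3.35 for Aqp3, a water and glycerol channel of basal cells, to 5.60 for Bpifb1, a relative of Bpifa1. They were the lipid-binding Sec14l3, the cytochrome Cyp2a5, the secreted inhibitors Wfdc2 and A2ml1, the GABA receptor subunit Gabrp, the retinol-oxidizing dehydrogenase Adh7 and the mucus protein Fcgbp. Sult1d1, a sulfotransferase, had 449, 206, 109 and 0 counts, which makes replicate 1 at least 122-fold higher than replicate 4 against a floor of 3 counts in that library.

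Lists of other epithelia differed in level. Squamous epithelium (2.20 to 2.68 summed CPM), kidney (0.185 to 0.434) and thymic epithelium (2.26 to 3.37) were near 0 in every library. The mesothelial and epicardial list summed to 97.2, 110, 77.5 and 83.7 CPM. The submucosal gland list summed to 109, 60.2, 33.0 and 3.03 CPM. In replicates 1 to 3 nearly all of this was Ltf, already given above (104, 56.5, 29.5 and 1.11 CPM). Of the 8 listed gland genes only 2 had a mean of at least 1 CPM, and 1 passed 4-fold, so the sum describes little beyond Ltf. In bulk RNA, fewer cells of a type and less RNA per cell cannot be told apart, and which cells held the airway transcripts was not tested.

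Blood genes formed another group, with replicate 3 highest and replicate 2 next. Of 8 listed erythroid genes 7 were in the table, all 7 passed 4-fold, and they summed to 962, 5155, 8057 and 1045 CPM. Hbb-bs, a beta globin, stood at 581, 3004, 4552 and 603 CPM, Hba-a1, an alpha globin, at 216, 1237, 2267 and 281 CPM, and Alas2, which opens heme synthesis in red cells, at 29.0, 148, 214 and 31.9 CPM. Replicates 2 and 3 were at least 4-fold above both other libraries for 8 genes, including Hbb-bt, Hba-a2 and Slc4a1. The paired globin genes have near-identical copies, and reads may have moved between Hba-a1 and Hba-a2 or between Hbb-bs and Hbb-bt.

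Platelet and neutrophil genes took the same order. Of 6 platelet genes 4 passed 4-fold: Ppbp, a chemokine of platelet granules (3.46, 30.04, 50.4 and 10.2 CPM), the integrin Itga2b (2.98, 16.8, 31.1 and 6.25 CPM), Gp9 and Treml1, and the platelet tubulin Tubb1 did too (1.26, 12.0, 17.5 and 3.62 CPM). Of the 4 neutrophil genes of at least 1 CPM, S100a8 (0.932, 4.44, 9.47 and 2.44 CPM) and S100a9 (1.05, 6.17, 12.0 and 3.03 CPM) passed. The 5 genes with the widest gap between replicate 3 and the next library were S100a8, Treml1, the neutrophil receptor Csf3r (2.14, 4.44, 9.30 and 2.51 CPM), the serotonin transporter Slc6a4 (0.511, 2.46, 5.78 and 1.41 CPM) and the kinase Fgr (0.872, 1.25, 3.13 and 0.961 CPM). B cell genes summed to 8.24, 14.1, 17.4 and 5.18 CPM with 0 of 7 past 4-fold, and resident macrophage genes to 451, 463, 427 and 384 CPM. C1qa (38.4 to 43.4 CPM) and Mrc1 (45.1 to 54.3 CPM) of that macrophage list were even across libraries, unlike the genes of circulating cells.

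Several atrial genes split the libraries into pairs. Atrial genes summed to 2187, 1791, 2955 and 3126 CPM. Myl7, the atrial light chain, stood at 165, 184, 360 and 400 CPM, Sln at 98.2, 108, 176 and 262 CPM, and Myl4 at 421, 389, 611 and 663 CPM, with replicates 3 and 4 above replicates 1 and 2 in each case. Of the 12 atrial genes only Bmp10, a growth factor of the right atrium, passed 4-fold, and it stood at 400, 95.8, 234 and 75.8 CPM, so that the library highest for Myl7 was the lowest for Bmp10. The ventricular list summed to 8808, 9934, 9143 and 8932 CPM, a range of 0.17, with Irx4 at 34.5 to 42.0 CPM and Mylk3 at 611 to 707 CPM. Pacemaker genes were low, with the channel gene Hcn4 at 27.2, 31.0, 36.6 and 25.5 CPM.

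Replicates 3 and 4, which had the higher sum of atrial genes, also had the higher mitochondrial share and fewer smooth muscle transcripts. Acta2, the smooth muscle actin, stood at 332, 366, 167 and 114 CPM, Myh11 at 197, 200, 95.5 and 75.8 CPM, and Cnn1, a contractile regulator, at 30.3, 25.9, 14.1 and 9.02 CPM. The elastic fibre gene Eln stood at 189, 175, 90.1 and 73.4 CPM, and Postn, a matrix protein of valves and fibroblasts, at 91.0, 93.7, 50.3 and 44.8 CPM. Replicates 1 and 2 were the higher pair for all 5 genes, while 0 of the 8 smooth muscle genes passed 4-fold. Des, the muscle intermediate filament, and Myocd, which both also belong to heart muscle, were even (1672 to 1854 and 105 to 129 CPM). The part of tissue sampling in these pairs was not tested.

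Several fat genes were highest in replicate 4. Ucp1 stood at 106, 65.7, 118 and 376 CPM and was the only gene of the brown adipocyte list past 4-fold. Otop1 (10.9, 6.72, 6.47 and 25.0 CPM), Elovl3 (0.842, 0.991, 1.56 and 4.44 CPM) and Cidea (53.6, 36.5, 38.1 and 79.1 CPM), all known from brown fat, were also highest there. The whole brown list summed to 1298, 1470, 1425 and 1755 CPM. Most of this sum came from Cox7a1 (517 to 630 CPM) and Cox8b (459 to 567 CPM), described above as muscle forms. Of the genes on the list 6 were highest in replicate 4, while Cox7a1 and Cox8b were highest in replicate 2. White adipocyte genes summed to 1441, 1064, 1259 and 1609 CPM, with Plin1 at 68.8, 35.1, 44.1 and 86.2 CPM. Lipid synthesis took that order, with replicates 1 and 4 above replicates 2 and 3: fatty acid synthase Fasn stood at 466, 144, 165 and 345 CPM, the desaturase Scd1 at 451, 232, 207 and 654 CPM, and Elovl6, an elongase, at 16.9, 7.20, 8.38 and 35.02 CPM, the only gene of 9 on that list past 4-fold. Cfd, an adipocyte product, went against it at 81.0, 47.3, 58.3 and 28.5 CPM. The kinase gene Sbk3 was also set apart in replicate 4, at 59.2, 47.0, 73.1 and 164 CPM.

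**Figure D5:**
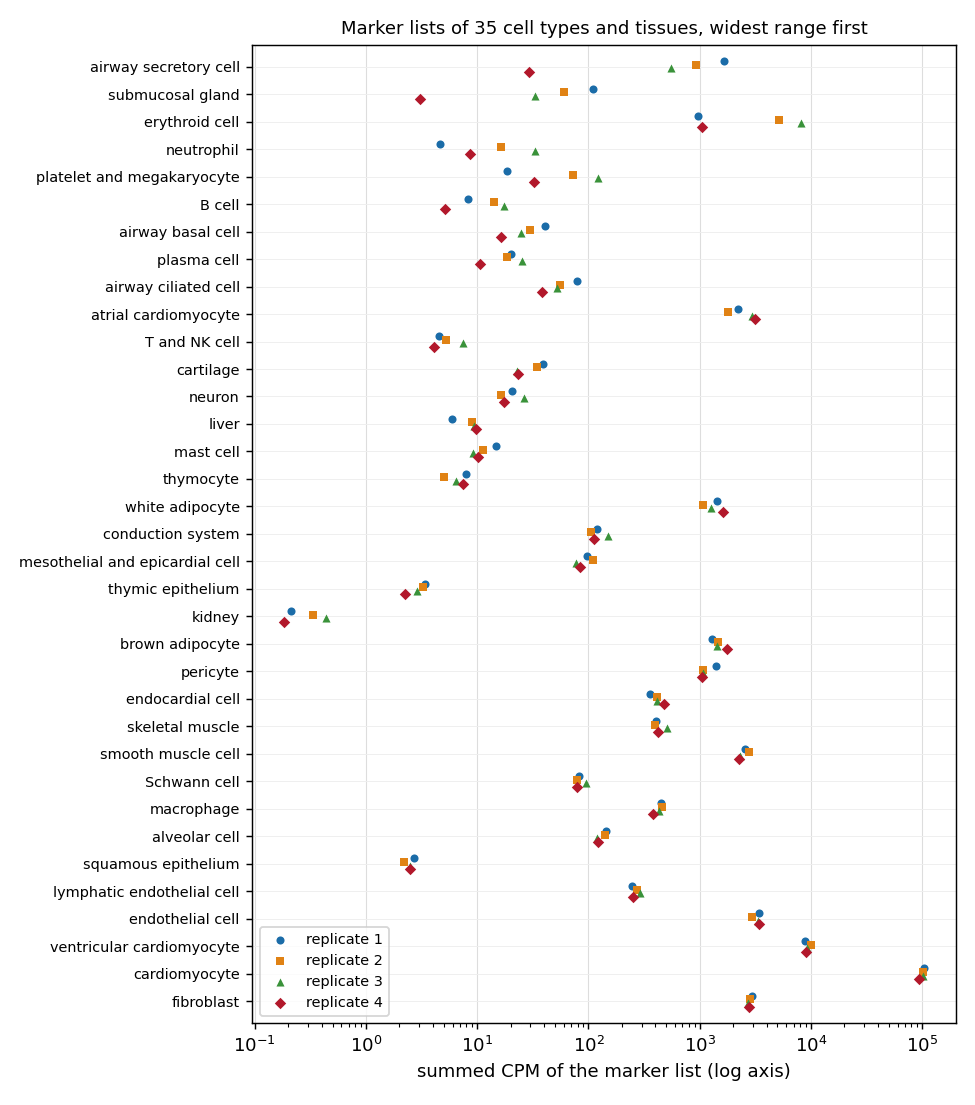
Summed CPM (log axis) of the marker lists of 35 cell types and tissues, 1 row per list and 1 point per library, ordered by the range of the sum. The airway secretory, gland, red cell, neutrophil and platelet lists spread most, the gland sum being mainly Ltf. The fibroblast and cardiomyocyte lists at the bottom have a range of 0.12 and 0.15.

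The summed lists of cardiomyocytes, fibroblasts and endothelial cells were even by comparison. The 15 cardiomyocyte genes summed to 102792, 101120, 100880 and 92742 CPM, a range of 0.15, and 0 of them passed 4-fold. Within that list Ryr2 (3718 to 4022 CPM) and Atp2a2 (20955 to 22841 CPM) were the narrowest, and titin, Ttn, was the widest at 17288, 9906, 12778 and 11511 CPM, with replicate 1 highest. Fibroblast genes summed to 2718 to 2951 CPM, with the marker Pdgfra at 65.3 to 70.7 CPM and Gsn at 1228 to 1296 CPM. Endothelial genes summed to 2962 to 3443 CPM, with Pecam1 at 157 to 185 CPM. Cd36 alone gave 1705 to 1961 CPM, so that 1 gene weighs heavily in that sum. Pericyte genes summed to 1391, 1071, 1070 and 1038 CPM. All 7 pericyte genes were highest in replicate 1, as were the vascular growth factor receptor Kdr (264, 165, 189 and 134 CPM) and the fibrillar collagen Col1a1 (351, 299, 252 and 231 CPM).

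A few genes stood apart singly. Msi1, which encodes the RNA-binding protein Musashi, stood at 0.812, 0.588, 24.4 and 26.2 CPM, from 27, 16, 562 and 709 counts, and was the only gene with a 4-fold gap between replicates 3 and 4 and the other pair. The inducible chaperones Hspa1a (3.04, 18.9, 4.56 and 6.73 CPM) and Hspa1b (3.70, 22.4, 5.56 and 6.69 CPM), near-identical copies of each other, were highest in replicate 2, and their partner Dnajb1 took the same order at 16.7, 33.5, 19.6 and 26.8 CPM. Alox15, a lipoxygenase (2.56, 6.13, 2.82 and 0.259 CPM), Slpi, a protease inhibitor of secretions (0.391, 5.10, 2.78 and 0.666 CPM), and Hapln1, a matrix link protein (1.14, 2.68, 1.09 and 1.26 CPM), were also highest in replicate 2. The other 8 genes of the 10 on the heat shock list did not pass 4-fold, with Hspa8 at 874 to 1038 CPM. The cartilage list summed to 39.2, 34.6, 22.8 and 23.1 CPM, with 2 of 7 genes past 4-fold and 3 highest in replicate 1. Its genes Col2a1 (5.14, 0.808, 0.391 and 0.481 CPM) and Acan (8.93, 2.97, 1.35 and 1.29 CPM), the unlisted Col10a1 (3.73, 0.294, 0.478 and 0.887 CPM) and the antibody chain Igha (3.22, 0.367, 0.261 and 0.259 CPM) were highest in replicate 1. Their levels are low, and Igha belongs to a class whose segments share reads.

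State-dependent genes were mostly even. The immediate early genes, which rise within minutes of a stimulus, summed to 513 to 606 CPM, with Fos at 4.81, 10.5, 8.08 and 6.62 CPM and Egr1 at 29.0, 24.4, 22.8 and 17.9 CPM, and 0 of 17 passed 4-fold. Among 16 clock genes Per1, which glucocorticoids and light can induce, stood at 26.8, 37.5, 53.8 and 74.5 CPM, while Nr1d1 (96.9 to 137 CPM), Clock (74.2 to 90.5 CPM) and Per2 (13.4 to 17.4 CPM) moved less. The metallothionein Mt2 (18.9, 25.1, 34.4 and 54.9 CPM) had the same order as Per1. Interferon-induced genes summed to 112 to 144 CPM, hypoxia-induced genes to 603 to 659 CPM, and proliferation genes to 36.3 to 43.0 CPM, with Mki67 at 1.81 to 3.82 CPM.

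Some genes hardly varied. Among 6533 genes with a mean of at least 20 CPM, the narrowest range belonged to Eif2b1, a subunit of a translation initiation factor exchange complex, at 22.0 ± 0.0274 CPM. Kpna3, a nuclear import adaptor (101 ± 0.303 CPM), Mycbp2, a ubiquitin ligase (114 ± 0.427 CPM), Pdzd8, a lipid transfer protein (67.7 ± 0.26 CPM), and Prkx, a protein kinase (30.7 ± 0.123 CPM), came next. Lims1, Rab21, Snx18, Arhgef7 and Gpatch2l completed the 10 narrowest. For all 10 the spread was below what counting alone gives (for Eif2b1 a coefficient of variation of 0.124% beside 4.05% from its mean of 609 counts), so their order carries no information.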

How the data were processed

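RNA-seq counts of the 4 libraries of 12-week hearts were used. The deposited values are raw read counts for each gene (whole numbers), per the file headers. The submitters' processing notes name Trimmomatic 0.36, STAR 2.5.2b, featureCounts, Subread 1.5.2 and DESeq2, without roles. Strand and multiple matches are not given in the sources used here. Of 49315 genes, 174 without a symbol were left out, and 94 symbols stand on more than 1 row. TPM used the deposited gene lengths. CPM used TMM factors from edgeR 4.0.16 (R 4.3.3), and an intercept-only edgeR fit gave the coefficient of variation. Ranges used genes of mean CPM of at least 1 and a pseudocount of 0.5. Totals of 23596857 to 31659290 counts per library set the precision. RefSeq tables (GRCm38.p6) gave gene classes for 73.9% of genes by symbol, and 95.7% of those at 1 TPM or more. The range and TPM scripts were tested on simulated data.

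Members, families and lists were chosen with earlier results of these data known. The genes named are the 30 nuclear genes of highest TPM and 13 mitochondrial mRNAs, the leading and next member of each family and any at 5% or more, the 30 genes of widest range without Gm or Rik names and receptor segments, per library the 5 with the largest gap above the next library, the 10 of narrowest range, and up to 4 leading members of each list with any past 4-fold. Others are examples chosen after their values were seen, and a few that the rule names are not reported here. Alternatives were total-count and DESeq2 1.42.0 scaling, other filters and pseudocounts, counts in place of TPM, and leaving out each library.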

Additional observations from a re-analysis of the deposited data

Results flagged for a closer look

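In 18 of 407 values tested, 1 library lay far from the other 3, by a gap whose share of the whole range passed Dixon's 95% critical value. That is 4.42% of them. Some of the genes were named because 1 library stood apart or because their range was narrow, and sums and shares overlap with their members. No chance rate can therefore be set beside this share. The measure also takes no account of counting error, so a gap smaller than that error can be flagged.

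Replicate 1 was the highest for the summed pericyte genes, at 1391 CPM against 1038 to 1071 CPM in the others, for Col2a1 (5.14 against 0.391 to 0.808 CPM), Igha (3.22 against 0.259 to 0.367 CPM), Cox4i2 (4.03 against 3.29 to 3.34 CPM) and Trp63 (1.89 against 1.65 to 1.66 CPM). It was the lowest for Plin5, a lipid droplet protein (128 against 155 to 158 CPM), and for the M-band protein gene Myom1 (1599 against 1699 to 1718 CPM).

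Replicate 2 was the highest for the chaperone gene Hspa1b (22.4 against 3.70 to 6.69 CPM), for Hapln1 (2.68 against 1.09 to 1.26 CPM) and for Tnni3 (2982 against 2581 to 2646 CPM). It was also the only library with counts of the skeletal troponin Tnnc2 (0.110 CPM), and so the only one in which Tnnc1 held less than all of the troponin C TPM, at 99.99%.

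Replicate 3 was the highest for Fgr (3.13 against 0.872 to 1.25 CPM). It had a Mef2d share of 61.8% of the MEF2 TPM, against 59.5% to 59.8%, and the lowest Prkx, at 30.5 against 30.8 CPM in each of the others. The Prkx flag carries no information, because its coefficient of variation (0.402%) was below the 3.43% that counting alone gives.

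Replicate 4 was the highest for Ucp1 (376 against 65.7 to 118 CPM) and Gys2, the liver and fat glycogen synthase (4.88 against 1.69 to 1.98 CPM), and the lowest for Actb (738 against 922 to 950 CPM).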

How the results depend on the processing

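No paired analysis was possible because all 4 libraries belong to 1 group. The count of genes with a range of 4-fold or more, 151, was 153 with total counts, 152 with DESeq2 size factors, 173 at a mean of 0.1 CPM or with no filter, and 199 with a pseudocount of 0.1. It was 50 at a mean of 5 CPM and 51 with a pseudocount of 2, and 45 to 144 when each library was left out, with 72 without replicate 1 and 45 without replicate 4, of which 43 were among the 151. Of the 30 genes of widest range without Gm or Rik names, 26 fell under 4-fold without replicate 4, and all 30 stayed past it without any other library and with either scaling. The mitochondrial share, 21.8% of TPM, was 9.62% of counts and 16.8% for the 13 mRNAs only, and 20.5% to 23.1% when each library was left out. The genes holding 50% of TPM numbered 41 in the main setting, 116 without mitochondrial genes and 332 by counts. In alternatives chosen after seeing the data they numbered 84 without genes under 200 bases and 320 among nuclear protein-coding genes. Genes at 1 TPM or more, 14045, numbered 12935 to 14749 under other rules. Families with a member at 90% or more numbered 26 by TPM and 26 by counts, 23 of them shared, and 39 had one at 80%. By counts, 60 of 71 leading shares moved by more than 1 SD. Depth limits genes of a few counts.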

Other observations

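Genes of the matrix, of vessels and of nerve sheath were not described above. Among the collagens listed, the basement membrane chains led by TPM, with Col4a1 at 169 ± 34.3 TPM and Col4a2 at 153 ± 25.0 TPM (SD, n = 4), ahead of the fibrillar Col1a1 (102 ± 28.4 TPM) and Col3a1 (89.4 ± 19.8 TPM). Sparc, a collagen-binding protein, reached 246 ± 65.5 TPM. The 16 genes of collagen and matrix summed to 3840, 3300, 3090 and 2727 CPM, with 0 past 4-fold. The elastin gene Eln had the widest range of that list, at 189, 175, 90.1 and 73.4 CPM. Of the lymphatic endothelium list, Prox1 stood at 154 to 180 CPM, Lyve1 at 22.0, 25.2, 34.9 and 30.3 CPM and Flt4 at 25.4 to 28.8 CPM. Heart muscle also expresses Prox1. Mmrn1, a protein of lymphatic vessels and platelets, stood at 9.86, 20.6, 25.8 and 16.4 CPM, the order of the platelet genes. Schwann cell genes summed to 82.4, 78.5, 94.8 and 78.5 CPM.

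Mast cell genes were low, with Kit at 3.86 to 7.16 CPM and Mcpt4 at 1.43 to 2.28 CPM, and 0 of the 5 with a mean of at least 1 CPM passed 4-fold. Endocardial genes summed to 358, 413, 414 and 476 CPM, with Npr3, the natriuretic peptide clearance receptor, at 82.6, 95.7, 106 and 137 CPM and Vwf at 191 to 249 CPM. The genes of skeletal muscle summed to 394 to 508 CPM, most of it from Acta1 (362 to 476 CPM), with the fast calcium pump Atp2a1 at 2.05 to 5.95 CPM. Liver genes summed to 5.95 to 9.76 CPM, most of it from Ahsg (5.32 to 8.65 CPM).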
